A study of Mus musculus with 16 samples.

Results

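Retained-intron transcripts are annotated isoforms that keep, inside an exon, sequence that other isoforms of the same gene splice out. The set described here holds the 1788 transcripts typed retained_intron in GENCODE M21 that reached at least 1 FPKM (fragments per kilobase of transcript, scaled to the mapped fragments of the library) in 2 or more of 16 mouse hepatocyte libraries. They were 1788 of 21481 transcripts of any type that passed the same limit, and 1788 of 17263 retained_intron transcripts listed, and they lay in 1422 genes. They were chosen by these FPKM values, so their levels are a description. In the second highest library, which decides membership, the members nearest the limit stood at 1.001 FPKM (Hsp90ab1) and 1.002 FPKM (Rpl3), and the nearest transcripts left out stood at 0.999 FPKM (Sssca1) and 0.998 FPKM (Shkbp1).

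All libraries came from hepatocytes of FVB mice, isolated with cycloheximide, a drug that stalls ribosomes on messages. One diet group ate normal chow (CHOW) and the other a diet with DDC, a liver toxicant, for 4 weeks. From each diet, cytoplasmic RNA and 3 sucrose gradient fractions were sequenced after polyA selection with a stranded kit: monosomes (1 ribosome), light polysomes (2 to 4 ribosomes) and heavy polysomes (more than 5). Each of the 8 combinations of diet and RNA pool had 2 libraries. The CHOW fraction libraries carry paired codes (CH1_CH2 and CH3_CH4) and the CHOW cytoplasmic libraries single codes (CH1 and CH3), while the codes of the DDC fractions (B and C) and of the DDC cytoplasm (C2 and D2) differ. Age is not given in the sources used here, and no label says which libraries came from separate animals, so the p-values below measure only the spread between these libraries, which may be technical.

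All 10 hepatocyte markers checked were detected, although 1 to 3 of the 10 were listed at 0 in both libraries of a group. Their summed FPKM was 24076 to 50663 in CHOW libraries and 7925 to 21407 in DDC libraries. That of 8 stellate markers was 13.5 to 39.0 and 87.2 to 221. Summed FPKM of 9 macrophage markers was 87.9 to 486 in CHOW libraries and 581 to 5784 in DDC libraries, and that of 8 ductal markers was 17.7 to 124 and 183 to 567. A list of 9 nuclear RNAs, led by Neat1, summed to 20.6 to 31.7 FPKM in cytoplasm, 27.5 to 43.6 on monosomes, 7.46 to 13.2 on light polysomes and 1.66 to 5.13 on heavy polysomes. These markers moved with diet or with fraction, and their part in the results below was not tested. In such bulk RNA, fewer cells of a type and less RNA per cell cannot be told apart.

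An intron that stays in a message can stop the polypeptide early, because introns are not kept free of stop codons. Messages that reach ribosomes with such a stop are classic substrates of nonsense-mediated decay, while others with retained introns are held in the nucleus and never translated. A message loaded with many ribosomes is commonly read as well translated, and 1 bound ribosome can mean a short reading frame or slow initiation. Many annotated retained-intron models are partial: they begin or end inside the intron, and short-read estimates split the reads of a gene between such models and the full-length isoforms.

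Sequences of 10 retained introns are shown because the results below turn on their transcripts. Those of Wdr83os, Ldhd, Gmppb and Ncl lay in transcripts whose share fell on heavy polysomes, and that of Calr in one whose share rose. Introns of Acadvl and Stab1 lay in transcripts that differed between diets, Rps16 and Gapdh hold 2 of the most abundant members, and the intron of Mrps24 has no stop codon in frame. Each is read 5′ to 3′ from the GENCODE M21 transcript model on the gene's strand, with 15 exonic bases on each side. Capitals mark the first and last pair of intron bases and the first stop codon in the frame of the annotated protein.
Wdr83os intron 1: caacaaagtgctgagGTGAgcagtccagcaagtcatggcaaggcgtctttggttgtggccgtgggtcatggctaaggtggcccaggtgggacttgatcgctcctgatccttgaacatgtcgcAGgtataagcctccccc
Ldhd intron 4: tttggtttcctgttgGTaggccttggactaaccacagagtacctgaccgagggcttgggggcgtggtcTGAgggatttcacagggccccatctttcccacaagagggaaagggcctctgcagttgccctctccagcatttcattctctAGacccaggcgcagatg
Gmppb intron 8: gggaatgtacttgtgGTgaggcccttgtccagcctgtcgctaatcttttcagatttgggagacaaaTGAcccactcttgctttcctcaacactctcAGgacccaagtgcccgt
Ncl intron 10: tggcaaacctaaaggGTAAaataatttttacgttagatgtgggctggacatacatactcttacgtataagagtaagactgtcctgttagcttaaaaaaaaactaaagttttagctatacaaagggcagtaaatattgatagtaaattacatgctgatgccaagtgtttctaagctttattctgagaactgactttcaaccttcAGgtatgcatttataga
Calr intron 4: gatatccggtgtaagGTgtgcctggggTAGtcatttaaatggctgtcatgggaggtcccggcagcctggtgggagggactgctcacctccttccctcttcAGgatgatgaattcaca
Acadvl intron 17: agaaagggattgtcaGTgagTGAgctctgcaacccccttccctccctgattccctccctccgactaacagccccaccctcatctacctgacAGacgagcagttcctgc
Stab1 intron 64: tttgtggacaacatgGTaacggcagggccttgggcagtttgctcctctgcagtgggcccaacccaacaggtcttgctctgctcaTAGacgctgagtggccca
Rps16 intron 3: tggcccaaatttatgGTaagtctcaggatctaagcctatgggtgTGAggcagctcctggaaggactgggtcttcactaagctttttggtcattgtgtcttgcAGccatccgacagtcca
Gapdh intron 5: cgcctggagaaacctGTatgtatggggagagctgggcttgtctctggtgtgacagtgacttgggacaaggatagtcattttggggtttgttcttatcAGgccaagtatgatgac
Mrps24 intron 1: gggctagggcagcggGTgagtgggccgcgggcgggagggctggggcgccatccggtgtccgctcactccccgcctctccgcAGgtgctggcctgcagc

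All 10 introns lie between coding exons of GRCm38 genes. The Wdr83os intron spans chr8:85081064-85081172 on the + strand (109 bases, intron 1 of 3), and its first in-frame stop, TGA, begins at intron base 2. The Ncl intron spans chr1:86352320-86352509 on the − strand (190 bases, 10 of 13), with TAA also beginning at base 2. In these 2 introns the stop overlaps the splice donor itself. The Ldhd intron lies at chr8:111629146-111629280 (− strand, 135 bases, 4 of 10), a multiple of 3 whose frame meets TGA at base 54. The Gmppb intron lies at chr9:108050977-108051059 (+ strand, 83 bases, 8 of 9) with TGA at base 52. The Calr intron lies at chr8:84844784-84844870 (− strand, 87 bases, 4 of 8) with TAG at base 13. The Acadvl intron lies at chr11:70010771-70010848 (− strand, 78 bases, 17 of 19) with TGA at base 6, just past the donor. The Stab1 intron lies at chr14:31140076-31140147 (− strand, 72 bases, 64 of 68), and its TAG at base 70 ends with the splice acceptor. The Rps16 intron lies at chr7:28352274-28352362 (+ strand, 89 bases, 3 of 4) with TGA at base 30. No in-frame stop occurs in the Gapdh intron at chr6:125162394-125162477 (− strand, 84 bases, 5 of 6), whose length is a multiple of 3, or in the Mrps24 intron at chr11:5707556-5707623 (− strand, 68 bases, 1 of 3). The Ldhd, Ncl and Gmppb transcripts each hold 1 further whole intron, which is not printed.

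Of the 1788 members, 1763 had the same model version in the annotation used, and only 532 of these (30.2%) held at least 1 whole intron of a protein_coding transcript. Another 1210 overlapped an intron only in part, and 21 did neither. In 1008 models (57.2%) the first base lay inside an intron, in 331 (18.8%) the last base did, and 458 (26.0%) held an annotated start codon. Members were short, with a median model length of 755 bases against 1829 bases for the most abundant protein_coding transcript of each gene. Most members therefore stand for part of a message.

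The 700 distinct introns held whole were themselves short. Their median length was 143 bases (quartiles 87 and 290), against 465 bases (148 and 1338) for 5923 other introns of protein_coding transcripts of the same genes, and 64.6% against 31.4% were under 200 bases. Median GC content was 54.9%, near the 55.5% of their flanking exons. GT and AG bounded 685 of the 700 (97.9%), and GC and AG 7. Of the 700, 653 lay inside the coding sequence, 26 in the 5′ UTR and 21 in the 3′ UTR, 86 were first introns and 112 last introns. A stop codon in frame occurred in 494 of the 602 coding introns whose frame could be followed (82.1%), and 221 of the 700 (31.6%) had a length that is a multiple of 3.

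Membership rested on few libraries for many transcripts. Exactly 2 libraries reached 1 FPKM for 330 members, and all 16 did so for 195. Only CHOW libraries passed 225 members and only DDC libraries 193. Only monosome libraries passed 78, only heavy polysomes 50, only cytoplasm 32 and only light polysomes 12. A single gene held 1 member in 1125 cases and 2 to 5 in 297. The median over members of their median FPKM was 0.693, with 241 members averaging 10 FPKM or more and 26 averaging 100 or more.

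The members took a larger part of their genes' RNA on monosomes and light polysomes than in cytoplasm in CHOW. Of all FPKM of their 1422 genes, members held 5.85% and 5.92% in the CHOW cytoplasmic libraries, 8.76% and 8.94% on CHOW monosomes, 10.2% and 10.3% on CHOW light polysomes and 7.24% and 6.48% on CHOW heavy polysomes. The 4 pools did not overlap in CHOW, with light polysomes highest and cytoplasm lowest. In DDC the members held 11.3% and 10.3% in cytoplasm, 10.7% and 10.2% on monosomes, 9.15% and 8.72% on light polysomes and 9.96% and 8.12% on heavy polysomes. The 2 DDC cytoplasmic libraries stood above both CHOW ones, and in DDC both polysome pools lay below cytoplasm and monosomes. The gene Vtn alone carried much of the heavy polysome value. Without it, members held 5.55% and 5.13% on CHOW heavy polysomes, then below the 5.91% and 5.92% of CHOW cytoplasm, and 8.81% and 7.08% on DDC heavy polysomes.

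With each gene weighted alike, the mean share of a gene held by its members was 16.6% and 17.9% in CHOW cytoplasm, 29.1% and 30.3% on CHOW monosomes, 27.3% and 28.4% on CHOW light polysomes and 24.3% and 24.5% on CHOW heavy polysomes. In DDC it was 23.2% and 19.6% in cytoplasm, 25.7% and 26.2% on monosomes, 24.8% and 24.9% on light polysomes and 25.7% and 22.0% on heavy polysomes. Cytoplasm was lowest in CHOW, and in DDC 1 heavy polysome library fell between its cytoplasmic libraries. The protein_coding transcripts of the same genes ran the other way, from 74.1% and 72.9% per gene in CHOW cytoplasm to 59.7% and 57.8% on CHOW monosomes and 65.7% and 65.3% on CHOW heavy polysomes. This opposite order is in part arithmetic, because all shares of a gene add up to its whole. Together the protein_coding transcripts held 80.1% to 86.3% of the FPKM of these genes. Transcripts typed nonsense_mediated_decay, of which 322 in the same genes passed the limit, held 3.01% to 4.46%, less than the members in every library.

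**Figure D1:**
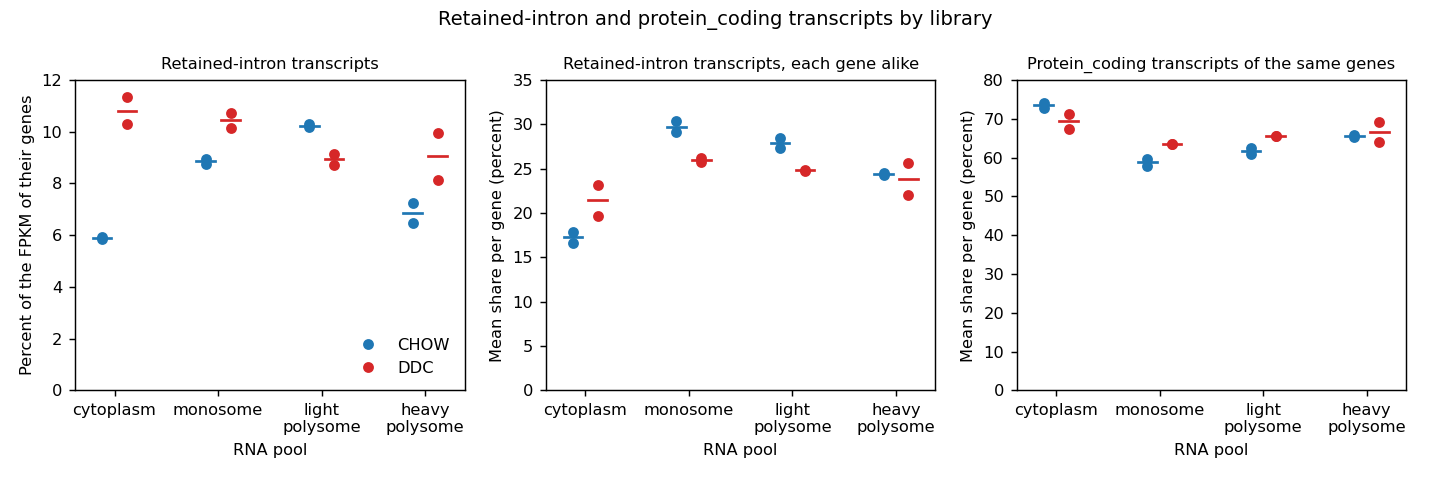
Each point is 1 library, and each short line the mean of the 2 libraries of a group (CHOW blue, DDC red), by RNA pool. The left panel gives the percent of the FPKM of their genes held by retained-intron transcripts, the middle panel their mean share per gene and the right panel the mean share per gene of protein_coding transcripts. In CHOW, cytoplasm is lowest in the left panel (5.85% and 5.92%) and in the middle panel, and highest in the right panel (74.1% and 72.9%).

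The members with the highest mean FPKM showed how differently single isoforms were placed. The Vtn member (vitronectin, a plasma protein made by hepatocytes; 678 bases, starting in an intron) was listed at 5.41 and 66.3 FPKM in CHOW cytoplasm, 213 and 81.8 on CHOW monosomes, 1524 and 1434 on CHOW light polysomes and 6449 and 5063 on CHOW heavy polysomes. The DDC libraries gave 502 and 116 FPKM in cytoplasm, 1620 and 1782 on monosomes, 1017 and 1567 on light polysomes and 3441 and 2522 on heavy polysomes. Its level was highest on heavy polysomes in both diets, with no overlap with another pool, and its share of the gene sum was 51.9% and 53.9% on CHOW heavy polysomes against 0.544% and 6.62% in CHOW cytoplasm. The Rps16 gene (a protein of the small ribosomal subunit) had 2 members among the highest; one held intron 3 and one started in an intron, and together they made up most of the gene sum in every library. The Gapdh member, from the gene of a glycolytic enzyme, stood at 39.5% and 49.0% of the gene sum on CHOW monosomes and 52.5% and 61.0% on CHOW light polysomes, yet at 0.162% and 0.222% in CHOW cytoplasm and was listed at 0 in both CHOW heavy polysome libraries. Its DDC heavy polysome libraries lay far apart, at 24.5% and 0.300%. In CHOW the fall from monosomes to heavy polysomes was −44.2 percentage points (limma, adjusted p = 0.0038, the test explained below) and was lost without the 4 CHOW libraries numbered 1 (adjusted p = 0.084). Such values divide the reads of shared exons between overlapping models.

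Heavy polysomes were then compared with monosomes within each diet, which asks whether retained-intron isoforms take a different part of their genes' messages among those with many ribosomes. The share of the gene sum (a transcript's FPKM as a percent of all FPKM listed for its gene in that library) was tested with limma over 13025 transcripts of all types, of which 1370 were members, and a transcript was called at a Benjamini-Hochberg adjusted p under 0.05. In CHOW, 84 members were higher on heavy polysomes and 161 lower. Over all transcripts tested, 8.15% were called higher and 8.47% lower, against 6.13% and 11.8% of the members. Protein_coding transcripts of the same genes went the other way, with 247 higher and 145 lower of 2120, and the nonsense_mediated_decay transcripts had 15 higher and 23 lower of 283. Shares of a gene add up to its whole, so the opposite direction is in part arithmetic and not a separate result. The median difference was −0.351 percentage points over members, 0.590 over the protein_coding transcripts and 0 over all transcripts.

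Many called members reached the limit in the group where they are high and not in the other group compared. Their calls are not fully separate from that limit, although libraries of other pools or of DDC could also meet it. Of the 84 higher members, 55 reached 1 FPKM in heavy polysomes and not in monosomes, and 44 were listed at 0 in both monosome libraries. Of the 161 lower members, 78 reached 1 FPKM in monosomes and not in heavy polysomes, and 64 were listed at 0 in both heavy polysome libraries. Shares of called members did not overlap between the groups. In DDC, 13 members were higher and 22 lower, with 1.15% of all transcripts called higher and 1.15% lower and the members at 0.949% and 1.61%. Of these, 11 of the 13 and 15 of the 22 reached 1 FPKM in the group where they are high and not in the other group compared. The DDC majority did not keep its direction. It turned to 12 higher and 9 lower without DDC Heavy Polysome 1, 14 and 9 without DDC Heavy Polysome 2, 12 and 9 among genes with a sum of at least 10 FPKM in every library, and 7 and 6 when transcripts under 1 FPKM were tested as well (called no filter below). Over all transcripts these runs gave 136 and 113, 140 and 113, 86 and 87, and 111 and 98. The DDC count of 35 fell to 10, with 3 higher and 7 lower, without DDC Monosome 1. The same counts came without the 4 CHOW libraries numbered 1, which enter only through the shared spread.

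**Figure D2:**
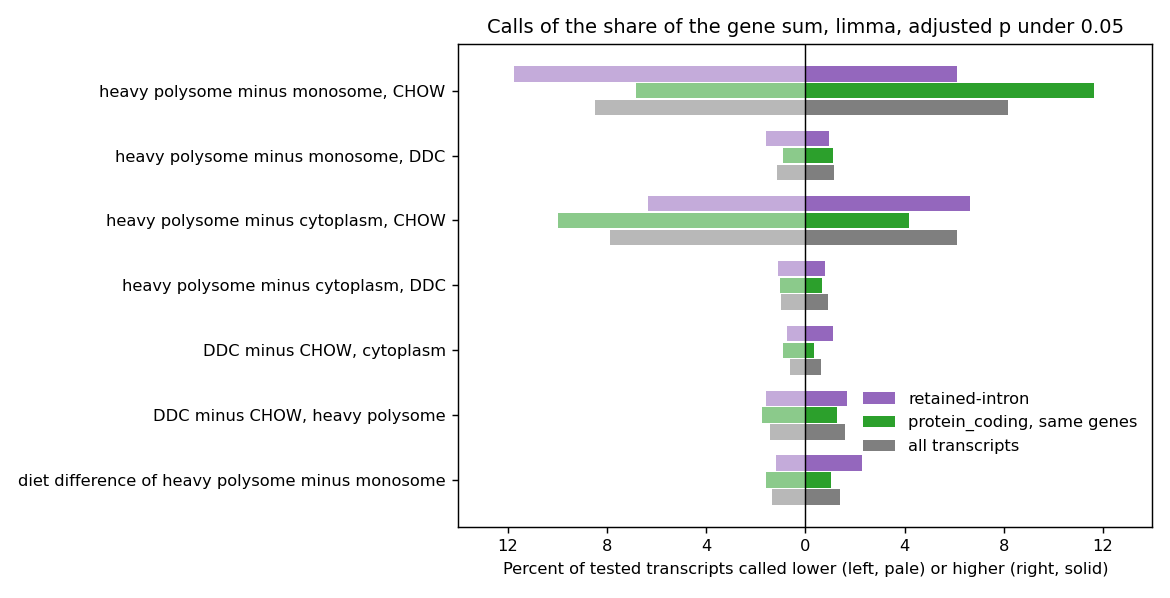
Bars give the percent of tested transcripts called lower (left, pale) or higher (right, solid) by limma for the share of the gene sum, for retained-intron transcripts, protein_coding transcripts of the same genes and all transcripts, in 7 comparisons. On CHOW heavy polysomes against monosomes, 11.8% of the retained-intron transcripts are lower and 6.13% higher, and 11.7% of the protein_coding transcripts are higher and 6.84% lower.

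Wdr83os, which encodes a subunit of a chaperone complex for membrane protein insertion in the endoplasmic reticulum, had a member that fell in both diets. Its retained-intron transcript (chr8:85080973-85082339, 798 bases), which holds the printed intron 1, made up 60.2% and 77.5% of the gene sum on CHOW monosomes, 22.0% and 28.5% on light polysomes, 2.08% and 6.94% on heavy polysomes and 23.0% and 24.2% in cytoplasm. In DDC the shares were 59.2% and 47.4% on monosomes, 17.2% and 13.6% on light polysomes, 3.07% and 4.64% on heavy polysomes and 20.0% and 22.0% in cytoplasm. In both diets the monosome libraries were highest and the heavy polysome libraries lowest, with no overlap. The difference between heavy polysomes and monosomes was −64.3 percentage points in CHOW (limma, adjusted p = 0.00033) and −49.5 in DDC (limma, adjusted p = 0.0092). Both calls held in every alternative run. On the level scale, log2(FPKM + 1), the transcript fell by 3.53 (SE 0.43) in CHOW and by 2.84 (SE 0.43) in DDC.

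Ldhd, the mitochondrial D-lactate dehydrogenase, followed the same order. Its member (3402 bases, holding introns 4 and 5 whole) stood at 91.9% and 78.7% of the gene sum on CHOW monosomes and 22.2% and 25% on CHOW heavy polysomes, and at 67.7% and 82.0% against 26.5% and 27.7% in DDC. Its FPKM on CHOW heavy polysomes, 12.1 and 18.0, lay above the 6.05 and 7.20 on monosomes, so the share fell while the level as deposited rose by 1.05 on the log2(FPKM + 1) scale (SE 0.31, limma, adjusted p = 0.023). The FPKM of all genes summed to 1379630 and 1359984 in these heavy polysome libraries and to 764465 and 812204 in the monosome ones. The size of this level rise depends on that scaling. Gmppb, which makes the sugar donor GDP-mannose, had a member at 56.9% and 70.0% on CHOW monosomes and 20.7% and 22.0% on CHOW heavy polysomes, and at 40.6% and 54.4% against 9.86% and 10.5% in DDC. In DDC these 2 falls were −47.8 points (limma, adjusted p = 0.045) and −37.3 points (limma, adjusted p = 0.043), and both calls ended when any 1 of the 4 DDC heavy polysome and monosome libraries was left out, without the CHOW libraries numbered 1 (adjusted p = 0.13 and 0.088) and with no filter (adjusted p = 0.063 and 0.066). The CHOW fall of Ldhd (−61.8 points, limma, adjusted p = 0.0025) was lost without the CHOW libraries numbered 1 (adjusted p = 0.071), and that of Gmppb (−42.1 points, adjusted p = 0.0098) without CHOW Monosome 2 (adjusted p = 0.051).

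Members without a whole intron also fell. Lgals8 (galectin-8, a sugar-binding protein) had a member at 76.3% and 75.8% on CHOW monosomes, 54.1% and 41.7% on light polysomes and 1.10% and 0% on heavy polysomes. In DDC it was at 49.4% and 57.9% on monosomes and listed at 0 in both heavy polysome libraries. The falls were −75.5 points in CHOW (limma, adjusted p = 0.0023) and −53.7 in DDC (limma, adjusted p = 0.030), the first lost without the CHOW libraries numbered 1 (adjusted p = 0.069). The DDC fall was lost without them (adjusted p = 0.15), when any 1 of the 4 DDC libraries was left out and on the untransformed share (adjusted p = 0.068). The Aspscr1 member (from the gene of a tether for glucose transporter vesicles) went from 40.2% and 44.3% on CHOW monosomes to 0 in both heavy polysome libraries, and from 29.4% and 18.8% to 0.0348% and 1.72% in DDC. Its CHOW fall of −42.3 points held in every alternative (limma, adjusted p = 0.00094), while the DDC fall of −23.2 points (adjusted p = 0.043) was lost without any 1 of the 4 DDC libraries, without the CHOW libraries numbered 1 (adjusted p = 0.12) and with no filter (adjusted p = 0.089).

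Rises toward heavy polysomes were as large in single members. Calr encodes calreticulin, a calcium-binding chaperone of the endoplasmic reticulum, and its member holds the printed intron 4 (chr8:84842596-84844916, 943 bases). Its share was listed at 0 on both CHOW monosome libraries, 29.3% and 27.2% on light polysomes, 49.1% and 49.9% on heavy polysomes and 56.2% and 57.2% in cytoplasm. In DDC it was 0 and 6.89% on monosomes, 44.4% and 50.8% on light polysomes, 39.7% and 54.4% on heavy polysomes and 60.1% and 64.5% in cytoplasm. Monosomes were the pool with the lowest share in both diets, with no overlap. The rise from monosomes to heavy polysomes was 49.5 points in CHOW (limma, adjusted p = 0.00056), kept in every alternative, and 43.6 points in DDC (limma, adjusted p = 0.013), lost only without the 4 CHOW libraries numbered 1 (adjusted p = 0.096). The gene sum itself was at 239 and 304 FPKM on the CHOW monosome libraries, so the gene itself was listed well above 0 there.

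Acp2 (lysosomal acid phosphatase) had a member holding intron 6 that was at 0% and 6.79% on CHOW monosomes, 67.2% and 52.6% on light polysomes, 74.9% and 75.9% on heavy polysomes and 2.60% and 0% in cytoplasm. The rise from monosomes was 72.0 points in CHOW and held in every alternative (limma, adjusted p = 0.00071). In DDC the same transcript ran from 37.9% and 47.5% on monosomes to 81.4% and 71.2% on heavy polysomes, which was not called (limma, adjusted p = 0.16). Eif1ax, an initiation factor that helps select the start codon, had a member listed at 0 on both CHOW monosome libraries and at 70.1% and 76.6% on heavy polysomes. That rise of 73.3 points (limma, adjusted p = 0.014) was lost without CHOW Heavy Polysome 2 (adjusted p = 0.058), CHOW Monosome 2 (adjusted p = 0.055) or the CHOW libraries numbered 1 (adjusted p = 0.14). Atp5j, a subunit of mitochondrial ATP synthase, had a member at 17.1% and 1.1% on CHOW monosomes and 51.6% and 48.7% on heavy polysomes, and at 0 in both DDC monosome libraries against 54.3% and 43.8% on DDC heavy polysomes. Its rises of 41.0 points in CHOW (limma, adjusted p = 0.0090) and 49.0 in DDC (limma, adjusted p = 0.011) held in every alternative.

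The comparison of heavy polysomes with cytoplasm shares its heavy polysome libraries with the comparison above. It sets ribosome-rich messages against cytoplasmic RNA of the same diet. The library codes do not show that the fractions came from the cytoplasmic preparations sequenced, and in DDC these codes differ between the pools. In CHOW, 91 members were higher on heavy polysomes and 87 lower, with 6.13% and 7.88% of all transcripts called higher and lower and the members at 6.64% and 6.35%. The protein_coding transcripts of the same genes had 89 higher and 212 lower of 2120, and the nonsense_mediated_decay transcripts 9 higher and 19 lower of 283. Of the 91 higher members 37 reached 1 FPKM in heavy polysomes and not in cytoplasm, and of the 87 lower members 52 reached it in cytoplasm and not in heavy polysomes. The CHOW counts, nearly even, turned to 24 higher and 37 lower without CHOW Cytoplasmic 1 and to 50 and 59 among genes with a sum of at least 10 FPKM. As a log2 ratio of the transcript to the protein_coding FPKM of its gene (the log2 ratio below) they were 181 and 270. Members tested numbered 1370, 614 and 1359. All transcripts leaned to lower in these settings as well, with 228 and 281 of 13025, 416 and 527 of 5254, and 456 and 596 of 3527. The CHOW count of 178 fell to 61 without CHOW Cytoplasmic 1, to 76 without CHOW Cytoplasmic 2, to 114 without CHOW Heavy Polysome 2 and to 58 without the CHOW libraries numbered 1. In DDC, 11 members were higher and 15 lower, with 0.898% and 0.998% of all transcripts called and the members at 0.803% and 1.09%. Of these, 6 of the 11 and 8 of the 15 reached 1 FPKM in the group where they are high and not in the other group compared. That count of 26 fell to 5 without DDC Cytoplasmic 2, to 9 without DDC Heavy Polysome 1 and to 13 without the CHOW libraries numbered 1.

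Ncl, which encodes nucleolin, an RNA-binding protein of ribosome assembly, held the called member with the largest fall from cytoplasm to heavy polysomes in both diets among genes averaging at least 10 FPKM. Its member (chr1:86350495-86359364, 3072 bases) holds the printed intron 10 and intron 9. It made up 76.2% and 76.0% of the gene sum in CHOW cytoplasm, 12.7% and 19.6% on monosomes, 7.36% and 7.47% on light polysomes and 20.1% and 13.3% on heavy polysomes. DDC libraries held it at 59.5% and 81.9% in cytoplasm, 8.83% and 14.6% on monosomes, 24.2% and 9.52% on light polysomes and 14.1% and 30.2% on heavy polysomes. Cytoplasm stood above all 3 ribosome fractions without overlap in both diets. Between heavy polysomes and cytoplasm the difference was −59.4 points in CHOW (limma, adjusted p = 0.0066) and −48.6 in DDC (limma, adjusted p = 0.045). The CHOW call was lost as a log2 ratio (adjusted p = 0.53) and without the CHOW libraries numbered 1 (adjusted p = 0.11). The DDC call was lost under the same alternatives (adjusted p = 0.17 in each) and without DDC Cytoplasmic 2 (adjusted p = 0.29) or DDC Heavy Polysome 1 (adjusted p = 0.22). In FPKM the transcript was at 28.7 and 33.2 in CHOW cytoplasm and at 14.3 and 13.1 on CHOW heavy polysomes.

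Other members with a whole intron were also lower on CHOW heavy polysomes. The Miip member was at 49.1% and 34.7% in cytoplasm and listed at 0 in both heavy polysome libraries (−41.9 points, limma, adjusted p = 0.0057), a call lost without the CHOW libraries numbered 1 (adjusted p = 0.10). Pcyt2, an enzyme of phosphatidylethanolamine synthesis, had a member at 11.5% and 13.4% in cytoplasm, 10.6% and 9.98% on monosomes, 1.31% and 0.672% on light polysomes and 0.374% and 0.186% on heavy polysomes. Its difference from monosomes to heavy polysomes, −10.0 points, held in every alternative (limma, adjusted p = 0.0016). Its difference from cytoplasm, −12.2 points (adjusted p = 0.0019), was lost without the CHOW libraries numbered 1 (adjusted p = 0.057).

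Of the 91 members higher on CHOW heavy polysomes than in cytoplasm, 66 start inside an intron, as do 720 of the 1349 tested members with a matched model. Supt5, a subunit of a transcription elongation factor, had such a member at 41.2% and 51.3% of the gene sum in CHOW cytoplasm and 100% in both CHOW heavy polysome libraries, a rise of 53.8 points (limma, adjusted p = 0.0011). Slc2a2, the main hepatocyte glucose transporter, had a member at 59.3% and 60.4% in CHOW cytoplasm, 71.4% and 65.9% on monosomes, 93.4% and 94.5% on light polysomes and 89.3% and 91.4% on heavy polysomes. In DDC it went from 65.0% and 58.3% in cytoplasm to 80.4% and 87.1% on heavy polysomes. Its rises were 30.5 points in CHOW (limma, adjusted p = 0.0033) and 22.1 in DDC (limma, adjusted p = 0.048). Without the CHOW libraries numbered 1, the CHOW calls of Supt5 and Slc2a2 were lost (adjusted p = 0.079 and 0.078), and the DDC call of Slc2a2 was lost there too (adjusted p = 0.15) and without any 1 of the 4 DDC libraries. The Vtn member rose by 49.3 points in CHOW (limma, adjusted p = 0.0049) and that call was likewise lost without the CHOW libraries numbered 1 (adjusted p = 0.10). Synj2bp, a mitochondrial outer membrane protein, had a member listed at 0 in all 4 cytoplasmic libraries and at 76.5%, 66.5%, 91.8% and 81.9% in the 4 heavy polysome libraries. Its calls (71.5 points in CHOW, adjusted p = 0.019, and 86.8 in DDC, adjusted p = 0.032, by limma) were lost when any 1 library of the groups compared was left out, and without the CHOW libraries numbered 1 (adjusted p = 0.26 and 0.17).

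**Figure D3:**
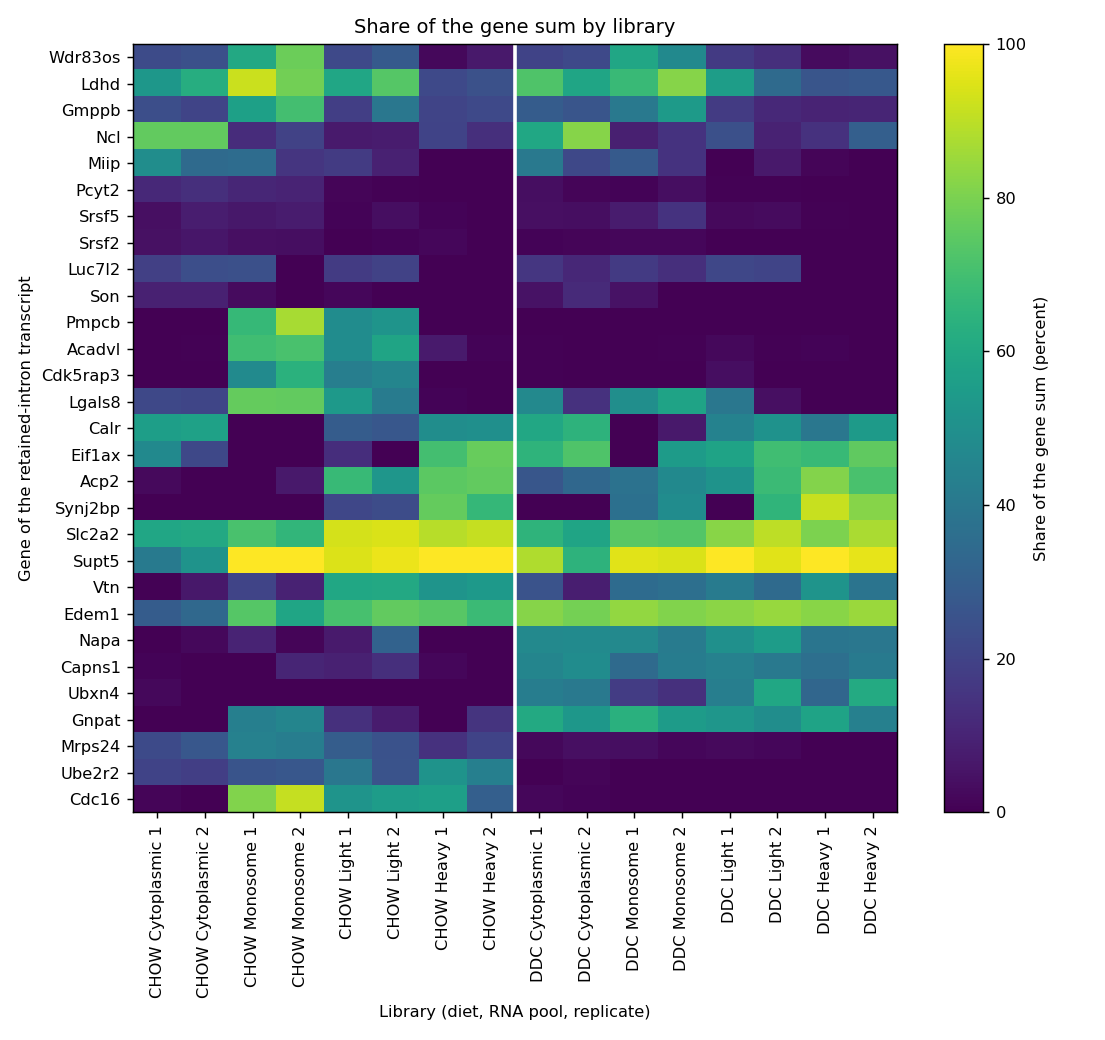
The colour gives the share of the gene sum, in percent, of 29 named retained-intron transcripts (rows) in each of the 16 libraries (columns, CHOW left of the white line and DDC right). Wdr83os, Ldhd and Gmppb are highest on monosomes in both diets, Ncl in cytoplasm, and Pmpcb, Acadvl and Cdk5rap3 on CHOW monosomes and light polysomes.

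The members were also counted by the structure of their model. The classes that follow were defined after values had been seen, and the difference between them was not tested. Among 200 tested members that hold both a whole intron and an annotated start codon, 5 were higher (2.5%) and 31 lower (15.5%) on CHOW heavy polysomes than on monosomes, against 8.15% and 8.47% of all transcripts. Against CHOW cytoplasm 2 were higher (1%) and 30 lower (15%), with 6.13% and 7.88% over all transcripts. In DDC the same class had 1 higher and 11 lower against monosomes (0.5% and 5.5%, with 1.15% and 1.15% over all), and 1 higher and 6 lower against cytoplasm (0.5% and 3%, with 0.898% and 0.998% over all). Their median difference was −0.579 percentage points against CHOW monosomes and −1.06 against CHOW cytoplasm.

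These counts depended on single libraries. With 1 library left out, or the CHOW libraries numbered 1, the class held 5 to 12 higher and 20 to 34 lower members against CHOW monosomes. Against CHOW cytoplasm it held 1 to 4 higher and 11 to 21 lower with 1 library left out, but 3 higher and 2 lower without the CHOW libraries numbered 1. In DDC it held 0 to 1 higher and 2 to 6 lower against monosomes. Against DDC cytoplasm the direction turned, to 2 higher and 0 lower without DDC Heavy Polysome 1 and 1 and 0 without DDC Cytoplasmic 2. It was even at 1 and 1 without DDC Heavy Polysome 2, with 1 and 2 without DDC Cytoplasmic 1 and 0 and 2 without the CHOW libraries numbered 1.

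Of 720 tested members that start inside an intron, 45 were higher (6.25%) and 93 lower (12.9%) on CHOW heavy polysomes than on monosomes (median −1.09 points), the same majority as in the class above. Against CHOW cytoplasm 66 were higher (9.17%) and 31 lower (4.31%), with a median of 1.68 points. In DDC the counts were near even, with 7 higher and 8 lower against monosomes and 8 and 5 against cytoplasm. With libraries left out, the counts against CHOW cytoplasm ran from 16 to 61 higher and from 11 to 23 lower, the closest being 16 and 14 without CHOW Cytoplasmic 1. Members with a whole intron and no start codon, 243 in number, had 18 higher (7.41%) and 17 lower (7%) against CHOW cytoplasm, near the shares over all transcripts, and 9 higher (3.7%) and 34 lower (14%) against CHOW monosomes. Of 264 members that end inside an intron, 25 were higher (9.47%) and 14 lower (5.3%) on CHOW heavy polysomes than on monosomes, the first near the 8.15% of all transcripts. Falls occurred with and without a stop codon in frame: of 347 members whose followed intron had one, 14 were higher and 51 lower on CHOW heavy polysomes than on monosomes, and of 65 without one, 0 were higher and 9 lower. Across 443 members with a whole intron, Spearman correlations of the share difference with intron length and GC content lay between −0.138 and 0.0509 in the 4 comparisons of heavy polysomes, and across 1349 members those with model length lay between −0.0632 and −0.0295. Members of 1 gene share their gene sum in these correlations.

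By library, the mean share of the 200 members with a whole intron and a start codon was 10.2% and 10.1% in CHOW cytoplasm, 12% and 10.3% on monosomes, 9.12% and 9.56% on light polysomes and 6.83% and 8.13% on heavy polysomes. In DDC it was 9.79% and 9.55%, 10.5% and 10.8%, 8.45% and 8.45%, and 7.57% and 7.25% in the same order. By this mean, heavy polysomes were lowest in both diets, with no overlap with any other pool. As a percent of the summed FPKM of their genes, the same members were lowest on heavy polysomes in CHOW only. There the values were 3.55% and 3.56% in cytoplasm, 3.79% and 3.93% on monosomes, 2.06% and 2.16% on light polysomes and 1.63% and 1.73% on heavy polysomes. In DDC they were 3.13% and 3.3%, 3.96% and 4%, 2.84% and 2.52%, and 3.15% and 2.71%, so light polysomes held the lowest library and heavy polysomes overlapped both cytoplasm and light polysomes. The 720 members with neither a whole intron nor a start codon had means of 14.6% and 16% in CHOW cytoplasm, 28.0% and 29.6% on monosomes, 26.9% and 27.9% on light polysomes and 23.8% and 23.6% on heavy polysomes. In DDC these were 22.0% and 18.0%, 24.6% and 24.6%, 24.4% and 24.0%, and 25% and 21.1%. That class was lowest in cytoplasm in CHOW, and in DDC its heavy polysome libraries spanned most of the other pools. The list of nuclear RNAs, as given above, was at 1.66 to 5.13 FPKM on heavy polysomes and 20.6 to 31.7 in cytoplasm, and their part in these orders was not tested.

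**Figure D4:**
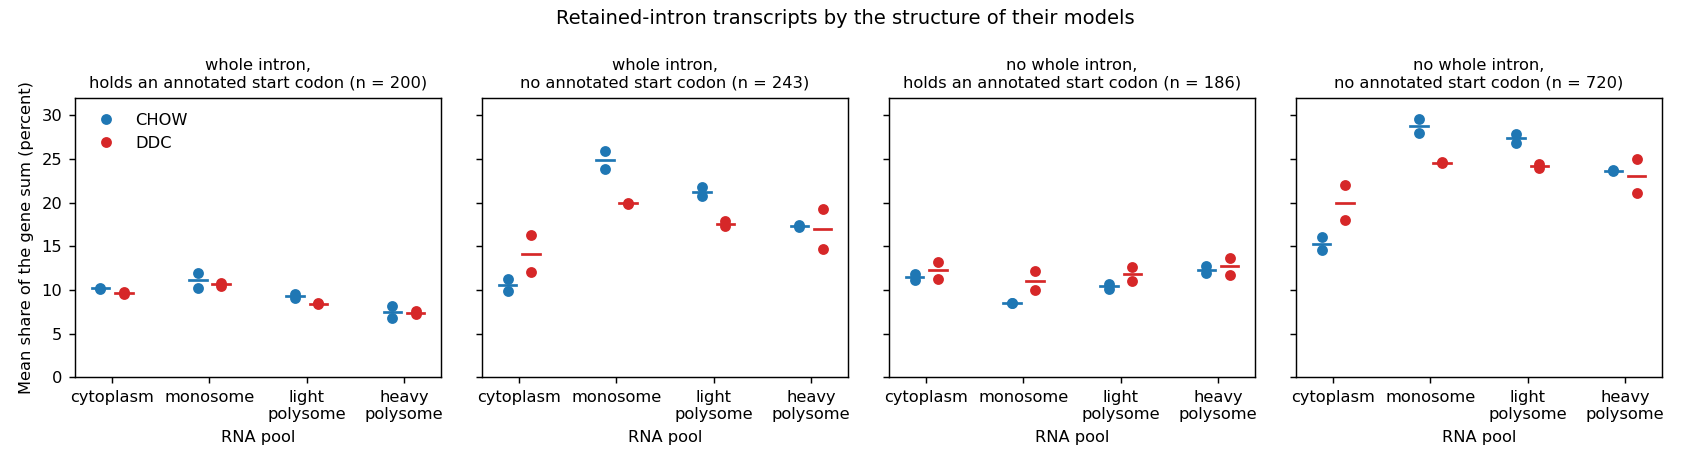
Each point is the mean share of the gene sum over the members of 1 structural class in 1 library, with a short line at the mean of the 2 libraries of a group (CHOW blue, DDC red). By this mean, members with a whole intron and an annotated start codon run lowest on heavy polysomes (6.83% to 8.13%), and members with neither run lowest in CHOW cytoplasm (14.6% and 16%).

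Diet was compared within cytoplasm and within heavy polysomes. In cytoplasm, 15 members were higher in DDC and 10 lower, with 0.63% of all transcripts called higher and 0.637% lower and the members at 1.09% and 0.730%. The protein_coding transcripts of the same genes had 7 higher and 19 lower. Of the 15 higher members 10 reached 1 FPKM in DDC cytoplasm and not in CHOW cytoplasm. Of the 10 lower members 9 reached it in CHOW cytoplasm and not in DDC cytoplasm. The counts were 6 higher and 9 lower without the CHOW libraries numbered 1, and 7 and 7 without DDC Cytoplasmic 2. Over all transcripts they were 49 and 51, and 47 and 71. Leaving out any 1 of the 4 libraries brought the 25 calls down to 10 to 14, the lowest without CHOW Cytoplasmic 2 and the others 12 without DDC Cytoplasmic 1, 13 without CHOW Cytoplasmic 1 and 14 without DDC Cytoplasmic 2. On heavy polysomes, 23 members were higher and 22 lower, with 1.58% and 1.43% of all transcripts called and the members at 1.68% and 1.61%. Of these, 12 of the 23 and 17 of the 22 reached 1 FPKM on heavy polysomes of the diet where they are high and not on those of the other diet. The near-even counts leaned to lower without CHOW Heavy Polysome 1 (33 and 39), CHOW Heavy Polysome 2 (23 and 29) or the CHOW libraries numbered 1 (23 and 36), and with no filter (12 and 14). The first of these raised the count of 45 to 72. Over all transcripts these runs gave 368 and 398, 255 and 247, 224 and 269, and 144 and 125. Markers of hepatocytes, macrophages, ducts and stellate cells differed between the diets as given above, and their part was not tested.

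Edem1, a factor that hands misfolded glycoproteins to degradation, had a member (chr6:108852391-108855525, starting in an intron) at 29.0% and 33.7% of the gene sum in CHOW cytoplasm and 81.7% and 79.2% in DDC cytoplasm. Its FPKM there was 8.70 and 10.1 against 78.2 and 69.3. In the other CHOW pools its share was already 58.8% to 76.2%, so CHOW cytoplasm was the pool that stood apart. The diet difference in cytoplasm was 49.1 points and held in every alternative (limma, adjusted p = 0.0039). Several others moved in both pools. Napa, a factor that recycles SNARE complexes, had a member at 0% and 2.32% in CHOW cytoplasm and 47.0% and 48.0% in DDC cytoplasm, and at 0 in both CHOW heavy polysome libraries against 39.0% and 39.5% in DDC. Capns1, the small subunit of calpains, had one at 0.947% and 0% against 45.6% and 48.7% in cytoplasm, and at 1.72% and 0% against 36.7% and 40.8% on heavy polysomes. Their heavy polysome rises of 39.2 points (Napa, limma, adjusted p = 0.012) and 37.9 points (Capns1, limma, adjusted p = 0.013) held in every alternative, and their cytoplasmic rises of 46.4 and 46.6 points (limma, adjusted p = 0.016 and 0.0097) were lost without either DDC cytoplasmic library, that of Napa also without CHOW Cytoplasmic 1 and that of Capns1 without CHOW Cytoplasmic 2. Ubxn4 (a factor of endoplasmic reticulum degradation) and Gnpat (an enzyme of ether lipid synthesis) rose in both pools as well, by 40.2 and 56.7 points in cytoplasm (limma, adjusted p = 0.012 and 0.0088), calls lost without CHOW Cytoplasmic 2 or DDC Cytoplasmic 1, that of Ubxn4 also without DDC Cytoplasmic 2 or the CHOW libraries numbered 1 (adjusted p = 0.18) and that of Gnpat without CHOW Cytoplasmic 1. On heavy polysomes their members went from 0 in both CHOW libraries to 33.0% and 61.0%, and from 0% and 15.1% to 57.9% and 43.4%. Those calls (47.0 points, adjusted p = 0.0028, and 43.1 points, adjusted p = 0.029, by limma) were lost without the CHOW libraries numbered 1 (adjusted p = 0.060 and 0.12), that of Gnpat also without DDC Heavy Polysome 1 (adjusted p = 0.11).

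Falls in DDC were led by members that were nearly missing there. Mrps24, a protein of the mitochondrial ribosome, had a member (chr11:5704326-5707667) that holds the printed intron 1 and a start codon. It stood at 22.6% and 27.0% in CHOW cytoplasm, 43.8% and 42.3% on CHOW monosomes, 29.3% and 25.3% on light polysomes and 14.3% and 20.2% on heavy polysomes. In DDC it was at 2.01% and 4.29%, 3.63% and 1.77%, 2.64% and 1.62%, and 0 in both heavy polysome libraries. No DDC library reached the lowest CHOW library. The heavy polysome fall of −17.3 points held in every alternative (limma, adjusted p = 0.0026), while the cytoplasmic fall of −21.6 points (adjusted p = 0.012) was lost without CHOW Cytoplasmic 2 (adjusted p = 0.070), DDC Cytoplasmic 1 (adjusted p = 0.089) or the CHOW libraries numbered 1 (adjusted p = 0.074), and as a log2 ratio (adjusted p = 0.080). The Ube2r2 member (a ubiquitin-conjugating enzyme) was at 18.7% to 51.3% in the 8 CHOW libraries and at 0% to 1.28% in the 8 DDC libraries, with a fall of −47.3 points on heavy polysomes (limma, adjusted p = 0.00037). Cdc16, a subunit of the anaphase-promoting complex, had a member at 56.3% and 30.2% on CHOW heavy polysomes and 0 in both DDC ones, a fall of −43.2 points (limma, adjusted p = 0.0027). Both heavy polysome falls held in every alternative. In cytoplasm the Cdc16 member was at or under 1.88% in all 4 libraries.

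Whether diet changed the placement between heavy polysomes and monosomes was tested as a difference of differences. It called 31 members higher and 16 lower, with 1.41% and 1.34% of all transcripts called and the members at 2.26% and 1.17%. The count of 47 rose to 102 without CHOW Monosome 1 and to 81 without the CHOW libraries numbered 1. Among the named members, positive differences that held in every alternative were those of Pmpcb, Acadvl and Cdk5rap3. They shared 1 pattern: high on CHOW monosomes and light polysomes and low elsewhere. Their shares thus fell in CHOW and were low in both DDC pools. The CHOW monosome libraries could by themselves bring them past the 1 FPKM limit, so these calls are not separate from the choice of members. How many members passed only through groups of this comparison was not counted. The Pmpcb member (mitochondrial processing peptidase; starting in an intron, 400 bases) was at 67.1% and 86.8% on CHOW monosomes and 48.6% and 51.8% on CHOW light polysomes, and at or under 0.314% in the other 12 libraries. The Acadvl member (very long chain acyl-CoA dehydrogenase, of fatty acid oxidation), which holds the printed intron 17, was at 69.4% and 71.5% and at 48.5% and 58.4%, and at or under 7.14% elsewhere. The Cdk5rap3 member (a factor of protein UFMylation; intron 12 whole) was at 47.8% and 63.9% and at 42.9% and 45.7%, and at or under 3.55% elsewhere.

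Gene sums of these 3 did not vanish where the member did. Pmpcb, for instance, summed to 54.1 and 59.5 FPKM in CHOW cytoplasm and 77.3 and 93.6 on CHOW heavy polysomes, against 40.3 and 68.7 on CHOW monosomes. The diet differences were 77 percentage points for Pmpcb (limma, adjusted p = 0.00038), 66.6 for Acadvl (adjusted p = 0.0025) and 55.8 for Cdk5rap3 (adjusted p = 0.0022). In the opposite direction, Dph3 (diphthamide synthesis) had a member that reached 25.7% and 38.5% on CHOW heavy polysomes and at most 3.77% in the other 14 libraries (−34.1 points, limma, adjusted p = 0.0035, held in every alternative). Those CHOW heavy polysome libraries could bring it past the 1 FPKM limit, so this call is not separate from the choice of members. Stab1, a scavenger receptor of macrophages and sinusoidal endothelium, had a member holding the printed intron 64 at 45.6% and 35.5% on CHOW monosomes and 81.9% and 92.0% on CHOW heavy polysomes, against 73.4% and 61.5% and then 66.8% and 52.7% in DDC. Its difference of −54.1 points (limma, adjusted p = 0.037) was lost without CHOW Heavy Polysome 2 (adjusted p = 0.070), CHOW Monosome 2 (adjusted p = 0.080), DDC Heavy Polysome 2 (adjusted p = 0.075), DDC Monosome 1 (adjusted p = 0.092) or the CHOW libraries numbered 1 (adjusted p = 0.065), and as a log2 ratio (adjusted p = 0.42).

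Genes of the splicing machinery are known for retained introns that tune their own amounts, so a list of SR proteins, CLK kinases and spliceosome genes was followed. Of its 44 genes, 19 had a member and 18 members could be tested. On CHOW heavy polysomes against cytoplasm, 7 were lower (Ddx39b, Luc7l2, Rsrp1, Snrnp70, Son, Srsf2 and Srsf5) and 1 higher (Sf3b1), with 7.88% and 6.13% of all transcripts called lower and higher. The median was −4.18 percentage points against 0 over all transcripts. The Luc7l2 member (a factor of the U1 particle) was at 18.8% and 23.9% in CHOW cytoplasm and listed at 0 in both heavy polysome libraries, and in DDC at 16% and 11.2% against 0% and 0.00382%. The Son member went from 9.08% and 9.34% to 0 in both CHOW heavy polysome libraries, and from 4.86% and 11.8% to 0 in both DDC ones. Srsf2 (an SR splicing factor) had a member with whole introns of its 3′ UTR at 4.38% and 6.01% in CHOW cytoplasm and 1.87% and 0% on heavy polysomes. These falls were −21.3, −9.21 and −4.26 points (limma, adjusted p = 0.036, 0.033 and 0.030) and none of the 3 held as a log2 ratio (adjusted p = 0.97, 0.93 and 0.22). Each was also lost without CHOW Cytoplasmic 1, CHOW Cytoplasmic 2 or CHOW Heavy Polysome 2, those of Luc7l2 and Son also without CHOW Heavy Polysome 1, that of Son without the CHOW libraries numbered 1 (adjusted p = 0.20) and that of Luc7l2 on the untransformed share (adjusted p = 0.054). Srsf5 lost its call against cytoplasm (adjusted p = 0.037) in 7 of 9 alternatives, at up to 0.56 as a log2 ratio. Of the 18 members, 0 were called between heavy polysomes and cytoplasm in DDC (median −1.70 points) and 0 between diets in either pool by limma. At an unadjusted p under 0.05 these comparisons held 0 higher and 5 lower, 2 and 3 in cytoplasm, and 0 and 1 on heavy polysomes.

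Srsf5, another SR protein, was the member of the list called against monosomes in both diets. Its transcript holds intron 5 and was at 6.55% and 7.46% on CHOW monosomes and 0.815% and 0% on heavy polysomes, and at 7.68% and 14.7% against 0.55% and 0.213% in DDC. The falls were −6.60 points (limma, adjusted p = 0.020) and −10.8 points (limma, adjusted p = 0.033). The first was lost without CHOW Heavy Polysome 2 (adjusted p = 0.10) or CHOW Monosome 2 (adjusted p = 0.074), as a log2 ratio (adjusted p = 0.072), with no filter (adjusted p = 0.076) and on the untransformed share (adjusted p = 0.075). The second was lost without DDC Heavy Polysome 1 (adjusted p = 0.079), DDC Heavy Polysome 2 (adjusted p = 0.10), DDC Monosome 2 (adjusted p = 0.10) or the CHOW libraries numbered 1 (adjusted p = 0.077), and with no filter (adjusted p = 0.096). Among 7 members in 4 genes of hnRNP and other RNA-binding proteins, each call was of an Hnrnpa2b1 member. Against monosomes, 1 was lower in CHOW (8.47% of all transcripts) and 1 higher in DDC (1.15%). In DDC minus CHOW, 1 was higher in cytoplasm (0.63%) and 1 on heavy polysomes (1.58%). The member with the higher calls was listed at 0 in all 8 CHOW libraries, so the lower call was of another member. It was at 12.4% and 24.1% in DDC cytoplasm, 3.45% and 11.6% on DDC heavy polysomes and 0 on the other DDC fractions. This member's rise in DDC cytoplasm was 18.2 points (limma, adjusted p = 0.0051) and was lost without the CHOW libraries numbered 1 (adjusted p = 0.18).

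Genes of the translation apparatus were followed next. Of 33 tested members in 20 genes of cytosolic ribosomal proteins, 1 (Rpl10a) was lower on CHOW heavy polysomes than in cytoplasm, 1 (Rps16) was higher in DDC heavy polysomes and 0 were called by limma between heavy polysomes and monosomes in either diet. At an unadjusted p under 0.05 the last comparison held 0 higher and 3 lower in CHOW and 0 and 1 in DDC. Over all transcripts, 8.15% were called higher and 8.47% lower against CHOW monosomes, and 1.15% each way in DDC. The shares were 7.88% lower against CHOW cytoplasm and 1.58% higher in DDC heavy polysomes. The Rps16 member with intron 3 was at 26.0% and 22.4% on CHOW heavy polysomes and 49.2% and 49.8% on DDC ones, and it was higher in DDC than in CHOW in every pool. Its rise of 25.3 points (limma, adjusted p = 0.047) was lost without any 1 of the 4 heavy polysome libraries or without the CHOW libraries numbered 1 (adjusted p = 0.11). Of 15 translation factor members, Eif1ax and Eif4g1 were higher on CHOW heavy polysomes than on monosomes, Eef1g was higher and Eif2b2 and Eif2b4 lower than in cytoplasm, and Eif2b2 was higher in DDC heavy polysomes. In CHOW these were 2 higher and 0 lower against monosomes, with 8.15% and 8.47% of all transcripts called, and 1 higher and 2 lower against cytoplasm, with 6.13% and 7.88%. Between diets on heavy polysomes, 1 was higher and 0 lower, with 1.58% and 1.43%. The Eif2b2 member (a subunit of the exchange factor for eIF2) was at 50.8% and 41.4% in CHOW cytoplasm and 0% and 6.27% on CHOW heavy polysomes. That fall of −43.0 points (limma, adjusted p = 0.0045) was lost without the CHOW libraries numbered 1 (adjusted p = 0.13).

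Members in genes of hepatocyte functions were counted as well. Of 51 secreted plasma protein genes, 6 had a member and 4 members were tested: Vtn was higher and Serpinc1 lower on CHOW heavy polysomes than on monosomes, and Vtn and C4b were higher than in cytoplasm. Of 73 cytochrome P450 genes, 5 had a member and 3 members were tested, with Cyp2a12 lower than on CHOW monosomes and Cyp2c50 and Cyp2c70 lower than in CHOW cytoplasm. Of 26 amino acid and urea cycle genes, 8 had a member and 10 members were tested. Got1 was higher and Gnmt lower on CHOW heavy polysomes than on monosomes, Got1 and Gls2 were higher than in CHOW cytoplasm, Ass1 was lower on DDC heavy polysomes than in DDC cytoplasm, and Ass1 and Got1 were higher in DDC than in CHOW cytoplasm. The shares of all transcripts called in these comparisons are those given above. The Ass1 member (argininosuccinate synthase) was at 13.2% and 14.6% of the gene sum in DDC cytoplasm, 0.525% and 11.2% on DDC light polysomes, 0.663% and 0% on DDC heavy polysomes and 0 in the other 10 libraries. Its rise in DDC cytoplasm was 13.9 points (limma, adjusted p = 0.029) and was lost without any 1 of the 4 cytoplasmic libraries or without the CHOW libraries numbered 1 (adjusted p = 0.35).

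On the scale of levels, log2(FPKM + 1), more members were called, and so were more transcripts of every type. Heavy polysomes against monosomes gave 201 members higher and 232 lower in CHOW and 94 and 102 in DDC, with 31.6% and 18.2% of all transcripts called in either direction. Against cytoplasm there were 292 higher and 149 lower in CHOW and 180 and 91 in DDC, with 35.2% and 26.2% called. Between diets, 89 were higher and 52 lower in DDC cytoplasm (10% of all transcripts called), 125 higher and 88 lower on DDC heavy polysomes (14.6%), and 50 higher and 35 lower for the diet difference of placement (3.73%). Members were called at a lower rate than all transcripts in each of the 6 simple comparisons, at 24.2% in the first of them. Directions on this scale depend on how libraries are brought to 1 scale. Scaling each library to the same FPKM total gave a median difference over all transcripts of −0.15 and −0.24 log2 units for heavy polysomes against monosomes, −0.60 and −0.53 against cytoplasm, and 0.10 and 0.20 between diets, where the values as deposited gave medians of 0 to 0.02. It then gave 118 members higher and 302 lower, 59 and 174, 115 and 327, 71 and 288, 174 and 68, 121 and 44, and 36 and 17 in the order above. The majority against cytoplasm thus turned from higher to lower, and the shares used above do not depend on that scaling. Single libraries turned other majorities. Without the CHOW libraries numbered 1, 18 members were higher and 37 lower in DDC cytoplasm, and 63 higher and 107 lower on DDC heavy polysomes. On DDC heavy polysomes the counts also turned without CHOW Heavy Polysome 1 (116 and 125) or CHOW Heavy Polysome 2 (88 and 95), and in DDC cytoplasm they were 29 and 30 without CHOW Cytoplasmic 1. Heavy polysomes against monosomes turned in CHOW to 221 and 216 without CHOW Heavy Polysome 1, 227 and 208 without CHOW Heavy Polysome 2 and 155 and 138 with 5 FPKM as the limit. In DDC they turned to 104 and 67 without DDC Heavy Polysome 2, 74 and 73 without the CHOW libraries numbered 1, 76 and 56 with 5 FPKM and 68 and 66 without the filter. The diet difference was 45 and 46 without CHOW Heavy Polysome 2. Over all transcripts, higher calls outnumbered lower ones in these runs except the first (227 and 339) and the last (353 and 481).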

How the data were processed

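FPKM per transcript was computed by the authors with Cuffnorm, per the submitters' processing notes, which name the GRCm38 (mm10) build, the aligner STAR (2.4.2a) and, for other steps, Picard (1.119), Trimmomatic and bcl2fastq (2.17.1.14). The deposited FPKM are not counts, so depth is unknown. Of 117567 transcripts, 116728 (99.3%) were matched to GENCODE M21 by identifier. Here, limma 3.58.1 (R 4.3.3) with a mean-variance trend was fitted to 8 group means in all 16 libraries. One fit used the arcsine square root of the share of the gene sum (13025 transcripts with at least 1 FPKM in 2 libraries, gene sum at least 1 FPKM in all 16). Another used log2(FPKM + 1) (21481 transcripts), where transcripts of 61 genes listed at 0 in both libraries of a group but at 100 FPKM or more elsewhere were treated as missing in that group. Benjamini-Hochberg adjustment covered all transcripts, with 8 residual degrees of freedom. Both fits were also run on simulated normal values with large planted shifts. Those values lack the listed zeros and shared gene sums of these data, so the runs cannot check the calls here. Table work used Python 3.11.15, pandas 2.3.3 and numpy 2.4.6.

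Members and gene lists were chosen with earlier results of these data known. Named were the 10 members with the highest mean FPKM, the 5 largest called rises and falls in share per comparison (gene sum averaging 10 FPKM, predicted genes left out), members of listed genes and those nearest the limit. Those rises and falls were named only where the compared groups did not overlap, so a lack of overlap there is no further support. Deviations of same-numbered CHOW libraries correlated at 0.121 to 0.365 between pools and DDC fractions at 0.131 to 0.19. DDC cytoplasm against DDC fractions gave 0.0517 to 0.205. Alternatives were other filters, an untransformed share, a log2 ratio to protein_coding FPKM, equal library totals, a replicate block and leaving out libraries. One named member is not reported here.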

Additional observations from a re-analysis of the deposited data

Results flagged for a closer look

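The change from monosomes to heavy polysomes differed between the diets, by limma's test of the difference itself, for 47 of 1370 members in share and for 85 of 1785 in level. Over all transcripts tested, 1.41% were called higher and 1.34% lower in share, and 3.73% in either direction in level. For 9 named members the difference (DDC minus CHOW, in percentage points of the gene sum) passed in share. Positive values were 77 for Pmpcb, 66.6 for Acadvl, 64.8 for Bnip1 and 55.8 for Cdk5rap3. The Bnip1 member, from the gene of a SNARE protein of the endoplasmic reticulum, was at 40.1% and 85.1% on CHOW monosomes and at or under 4.06% in the other 14 libraries. Its CHOW monosome libraries lay far apart and could by themselves bring it past the 1 FPKM limit. Its call is therefore not separate from the choice of members.

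Negative values were −61.9 for Gfm1, −54.1 for Stab1, −34.2 for Amy1, −34.1 for Dph3 and −31.4 for Rab8a. Gfm1, a mitochondrial elongation factor, had a member at 0.533% and 20.9% on CHOW monosomes and 78.7% and 82.5% on CHOW heavy polysomes, against 63.3% and 61.6%, then 67.4% and 73.5%, in DDC. The Rab8a member (a small GTPase of vesicle traffic) was listed at 0 on both CHOW monosome libraries and at 35.4% to 84.0% in the other 14. The Amy1 member (amylase) was at 38.5% and 36.2% on CHOW heavy polysomes, 8.37% and 11.8% on CHOW light polysomes and at or under 6.39% elsewhere. The CHOW heavy polysome libraries could bring the Amy1 member past the 1 FPKM limit, so its call is not separate from the choice of members. The differences of Gfm1 (limma, adjusted p = 0.035) and Rab8a (limma, adjusted p = 0.040) were lost without any of 5 single libraries each and with no filter on the transcript (adjusted p = 0.051 for both). That of Rab8a was also lost on the untransformed share (adjusted p = 0.19) and without the CHOW libraries numbered 1 (adjusted p = 0.097). The Amy1 difference (limma, adjusted p = 0.018) was lost without the CHOW libraries numbered 1 (adjusted p = 0.12) and as a log2 ratio to protein_coding FPKM (adjusted p = 0.16), and that of Bnip1 (limma, adjusted p = 0.013) on the untransformed share (adjusted p = 0.055). The Stab1 difference (limma, adjusted p = 0.037) was lost in 6 of 13 alternatives, at up to 0.42 as the log2 ratio.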

How the results depend on the processing

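Of 148 recomputed counts of called members, 99 stayed within 1.5 times the value reported. Of 135 named calls 36 held in every alternative. The 1 value that changed sign was Dusp1, heavy polysomes minus cytoplasm in CHOW, at 0.103 as a log2 ratio to protein_coding FPKM (limma, adjusted p = 0.90).

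For share, in the order heavy polysomes minus monosomes (CHOW, DDC), heavy polysomes minus cytoplasm (CHOW, DDC), DDC minus CHOW (cytoplasm, heavy polysomes) and the diet difference, the counts reported were 245, 35, 178, 26, 25, 45 and 47. A gene sum of at least 10 FPKM gave 159, 21, 109, 9 and, for DDC minus CHOW on heavy polysomes, 23. The log2 ratio gave 475, 105, 451, 150 and, on heavy polysomes between diets, 83. Without the filter on the transcript, 13 were called between DDC heavy polysomes and monosomes and 26 between diets on heavy polysomes. The untransformed share gave 53 between diets in cytoplasm. Leaving out 1 library gave 200 to 285, 10 to 33, 61 to 151, 5 to 30, 10 to 14, 40 to 72 and 42 to 102. Without the CHOW libraries numbered 1 the counts were 10 (DDC, monosomes), 58 and 13 (cytoplasm), 15 (diets, cytoplasm) and 81 (diet difference).

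For level, leaving out 1 library gave 271 to 427 and 107 to 336 of the 441 and 271 calls against cytoplasm, 47 to 72 of 141 between diets in cytoplasm and 65 to 135 of 85 for the diet difference. Without the CHOW libraries numbered 1 there were 233 against CHOW cytoplasm and 55 between diets in cytoplasm. Equal totals gave 242 between diets in cytoplasm and 53 for the diet difference. Without the filter 178 (DDC, cytoplasm), 130 (diets, heavy polysomes) and 50 (diet difference) were called, and 5 FPKM as the limit gave 52 for the diet difference. The cause was not tested for any of these, except that a stricter filter tests fewer members.

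A replicate block gave 247, 36, 187, 27, 25, 45 and 48 calls in share and 457, 229, 474, 271, 142, 215 and 113 in level, none moved by over 1.5 times. With 2 libraries a group and no counts, a value listed at 0 cannot be told from a failed estimate.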
